A study of Drosophila melanogaster with 3 samples.

Results

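The 5 rhodopsin genes ninaE, Rh3, Rh4, Rh5 and Rh6 and the 2 arrestin genes Arr1 and Arr2 were taken from a set of full-length transcript isoforms of Drosophila melanogaster heads by their gene identifiers. All 7 had at least 1 isoform. They are 7 of the 4059 genes, and their 10 isoforms are 10 of the 5272 isoforms, in the set. Iso-seq, in which a single PacBio read spans a cDNA from end to end, was run on whole heads of w1118 flies, a white-eyed strain used here as the wild type. The flies were 3 days old, untreated and kept at 25 °C, and the study's methods give equal numbers of males and females. There is no second condition: 3 libraries of this single group were pooled by the authors into 1 list of isoforms, each backed by at least 2 full-length reads. The study asked how the place where a transcript starts is linked to its splicing and to the place where it ends.

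The list gives the position of each exon on the dm6 genome and no abundance, so the values below are structures and counts, with no spread between libraries and no test. Read numbers per library were not used here. A gene with several isoforms had several structures that passed, which says nothing of how much RNA each made up. In whole heads, RNA of photoreceptors is mixed with that of all other cells.

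Rhodopsins are the light receptors of the eye, G-protein-coupled receptors that carry a retinal-type chromophore and that become metarhodopsin when they absorb light. Activated metarhodopsin switches on a Gq protein and phospholipase C, which opens the TRP and TRPL channels, and arrestins end the response by binding metarhodopsin. In the fly, each photoreceptor type is known by the rhodopsin it makes: ninaE encodes Rh1 of the outer photoreceptors, Rh3 and Rh4 encode ultraviolet-sensitive rhodopsins of the inner photoreceptor R7, and Rh5 and Rh6 encode the blue- and green-sensitive rhodopsins of R8 beneath it. Arr2 encodes the major and Arr1 the minor visual arrestin.

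Detection of all 7 genes was set beside that of the genome. Of the 13986 annotated protein-coding genes, 28.8% had an isoform. Among the 3891 protein-coding genes whose longest annotated transcript lies in the range of the members' longest transcripts, 1349 to 2327 nt, 32.7% had one. The genes were chosen with this list of isoforms already known, so their full detection is a description.

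ninaE (FBgn0002940) had 1 isoform at 3R:19886256-19888206 on the minus strand. It had 5 exons, and its 4 introns were 63, 175, 58 and 68 nt long. The spliced length was 1587 nt, of which 1122 nt, or 70.7%, was coding sequence for a protein of 373 residues, with 176 nt of 5′ UTR and 289 nt of 3′ UTR. Its first intron came after only 8 coding nucleotides. The nearest annotated protein-coding gene was Ask1, a stress-signalling kinase gene, 224 nt away on the opposite strand and without an isoform.

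Rh3 (FBgn0003249) was the only member without an intron. Its single exon of 1609 nt at 3R:20080842-20082450 began at the annotated 5′ end and ran 218 nt past the annotated 3′ end at position 20081060. Whether the listed 3′ end is a true cleavage site was not tested, and use of the authors' 3′ end filter here is not stated. With 1152 nt of coding sequence for 383 residues, the isoform had the shortest 5′ UTR of the members, 24 nt, and the longest 3′ UTR, 433 nt, where the annotation gives 215 nt. It was listed on the plus strand, whereas the gene lies on the minus strand. That is frequent in the list: 50.2% of the 269 single-exon isoforms of annotated genes were listed on the strand opposite to their gene, so the listed strand of a single-exon isoform was not used. The nearest other annotated protein-coding gene, CG4390, lay 21091 nt away.

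Rh4 (FBgn0003250) encodes the other R7 rhodopsin, and its gene was built differently. The isoform at 3L:16852528-16862517, on the minus strand, had 2 exons on either side of an intron of 8642 nt, which filled 86.5% of its span. The spliced length was 1348 nt, with UTRs of 47 and 164 nt around 1137 coding nt for 378 residues. The intron holds 3 annotated genes of the opposite strand, sina, sinah and CG13029. The first is needed to specify R7 and encodes a ubiquitin ligase, and sinah is its paralogue. None of the 3 had an isoform under its own identifier. A single-exon isoform of 701 nt without a gene identifier lay inside this intron at 3L:16853745-16854445, where it overlapped the annotated start of sina at position 16853751.

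Rh5 (FBgn0014019) had the shortest isoform of the members, 1346 nt at 2L:12008379-12009832 on the plus strand. It had 3 exons, introns of 58 and 50 nt, UTRs of 70 and 127 nt, and 1149 coding nt for 382 residues, so that 85.4% of it was coding. The annotation gives this gene 2 starts 225 nt apart. The isoform used the downstream one, and none was listed from the upstream start.

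Rh6 (FBgn0019940), the other R8 rhodopsin, had an isoform of 1406 nt at 3R:15483159-15484699 on the plus strand. Its 3 exons were joined across introns of 67 and 68 nt, and UTRs of 137 and 180 nt flanked 1089 coding nt for 362 residues, the shortest rhodopsin of the 5. At the same 2 ends lay an unspliced isoform of 1541 nt, without a gene identifier, that held both introns. It was listed on the minus strand, the strand of the neuropeptide gene Trissin, whose annotated 3′ end lies 30 nt past that of Rh6. Its strand is not known for the reason given for Rh3.

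Arr2 (FBgn0000121) had 1 isoform of 1546 nt at 3L:8647262-8648936 on the minus strand. It had 3 exons, introns of 67 and 62 nt, UTRs of 111 and 229 nt, and 1206 coding nt for 401 residues, the longest coding sequence of the 7. The gene lies inside an intron of 1 of the 2 annotated transcripts of Pex7, which encodes a peroxisomal import receptor on the opposite strand. The 2 genes shared 0 nt of exon, and Pex7 had no isoform.

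**Figure D1:**
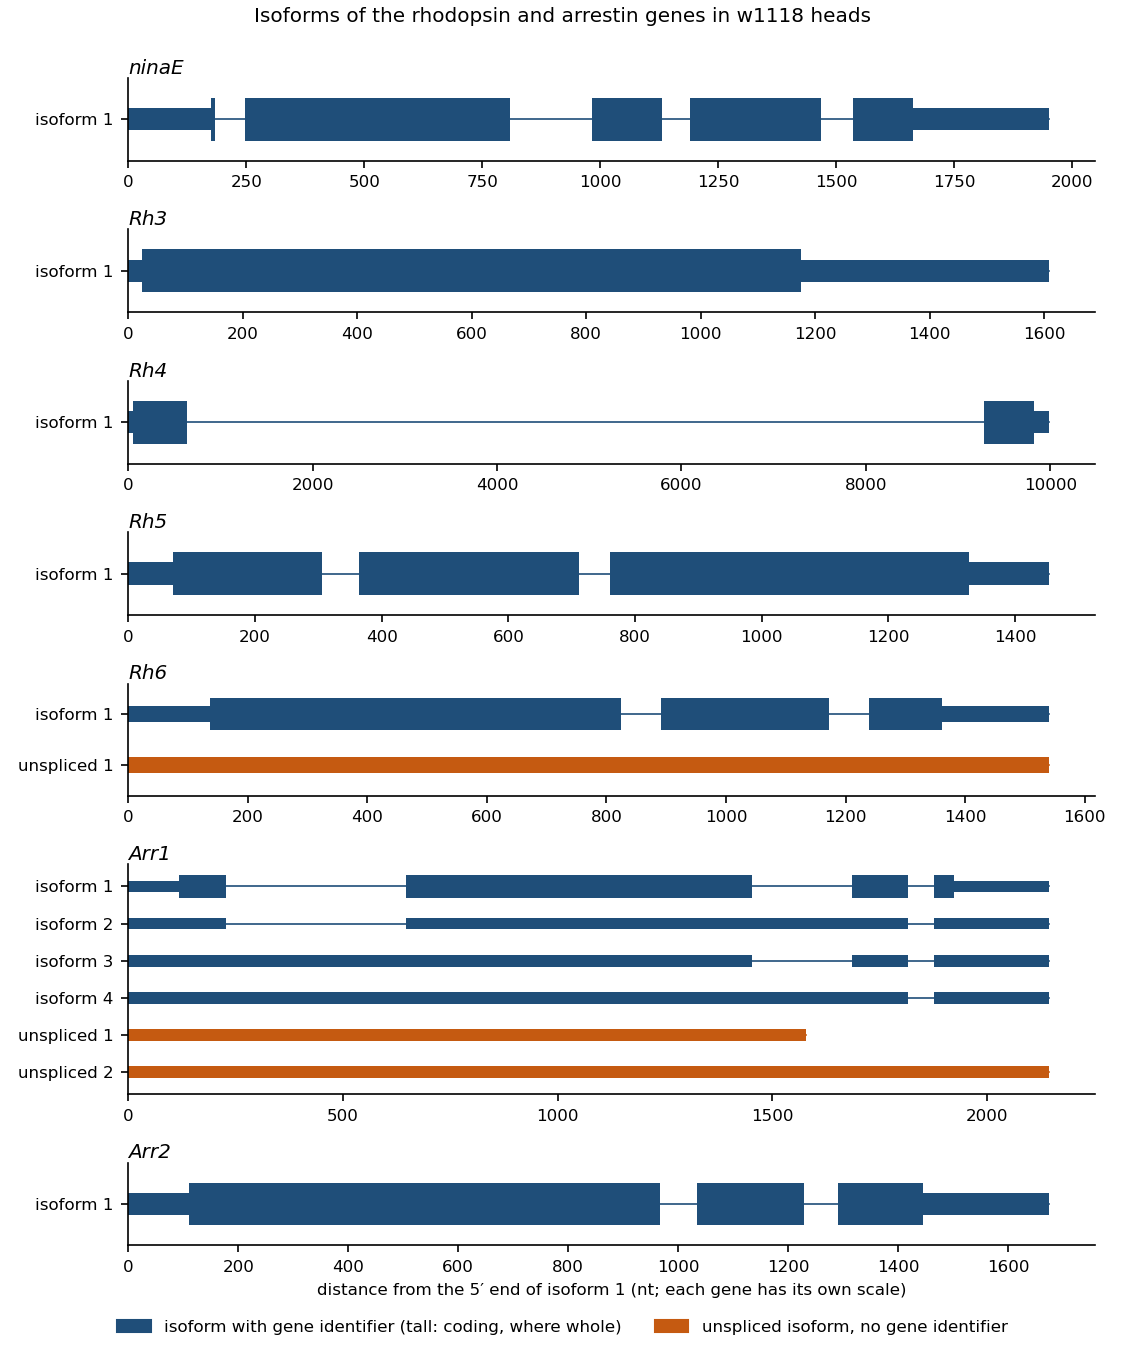
Isoforms of the 7 genes drawn to scale, 1 panel a gene, with the distance from the 5′ end of the first isoform in nt on each horizontal axis. Boxes are exons, tall boxes the coding sequence where an isoform holds it whole, lines introns, and orange boxes unspliced isoforms without a gene identifier. Rh3 has no intron, Rh4 has 1 intron of 8642 nt, and Arr1 is the only gene with more than 1 isoform under its identifier.

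Arr1 (FBgn0000120) was the exception among the 7, with 4 isoforms where the other 6 had 1 each. In the whole list 14.8% of genes had 2 or more isoforms and 1.75% had 4 or more. The 4 had the same ends, 2L:18078270-18080415 on the plus strand, and differed only in whether they held the first and the second intron. The first isoform, of 1434 nt, had all 3 introns removed and carried the annotated coding sequence of 1095 nt for 364 residues between UTRs of 118 and 221 nt. The second, of 1667 nt, held intron 2. The third, of 1853 nt, held intron 1, and the fourth, of 2086 nt, held both.

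Intron 1 of Arr1 (2L:18078497-18078915) is 419 nt long and follows 109 coding nt, that is 36 codons and 1 base. Intron 2 (2L:18079724-18079956) is 233 nt long and follows 917 coding nt. Intron 3 (2L:18080087-18080146), of 60 nt, follows 1047 coding nt. Introns 1 and 2 were each removed in 2 of the 4 isoforms and held in the other 2, whereas intron 3 was removed in all 4. The lengths of introns 1 and 2 each leave a remainder of 2 when divided by 3, and their sum of 652 nt leaves a remainder of 1. None of the 3 isoforms that held an intron therefore kept the annotated reading frame from the start codon to the stop codon.

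Among the 599 genes with 2 or more isoforms, 32.1% had an intron of one isoform held in an exon of another. For 57 genes 2 or more introns were held in this way. All 4 combinations of a pair of introns, with neither, the first, the second or both held, were listed for Arr1 alone. That is 0.167% of the 599, but most of these genes could not show all 4. At least 4 isoforms are needed, which 71 genes in the list had, and 2 held introns, which 57 had. Another 6 genes had 3 of the 4 combinations. These counts were made after the Arr1 isoforms had been seen.

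A pair of single-exon isoforms without a gene identifier lay on Arr1 as well. One, of 2146 nt, had the ends of the 4 spliced isoforms and held all 3 introns. The other, of 1580 nt at 2L:18078270-18079849, shared their 5′ end, held intron 1 and stopped 126 nt into intron 2. Both were listed on the plus strand, that of Arr1, but their strand is not known for the reason given for Rh3. With these counted by position, intron 1 was removed in 2 and held in 4 of 6 isoforms. Intron 2 was removed in 2 and held whole in 3, and intron 3 was removed in 4 and held in 1.

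An unspliced isoform with both ends of a spliced one, at a locus without a gene identifier, was thus listed for 2 of the 6 members that have an intron, Arr1 and Rh6. Of the 3795 genes with a spliced isoform, 0.132% had such a copy. The 5 genes were Arr1, Rh6, frma, CG2233 and Cpn, which encodes the photoreceptor calcium-binding protein calphotin; the last 3 are named after their values were seen. When ends were allowed to differ by up to 50 nt at either side and 150 nt at the other, 15 genes had such a copy. Again 2 members were among them. An unspliced copy that carried the gene identifier was listed for 1 gene with the same ends, and for 2 with the looser ends.

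The annotation gives Arr1 another first exon and another 3′ end. The exon, of 149 nt at 2L:18078649-18078797, lies inside intron 1, begins 380 nt downstream of the start that was used and carries a start codon at position 18078731 for a protein of 350 residues. No isoform began there. The distal annotated end lies 892 nt past the end of the 4 isoforms, and none reached it. Downstream of that distal end, 320 nt away, begins ninaD, the scavenger receptor gene for carotenoid uptake, which had no isoform.

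**Figure D2:**
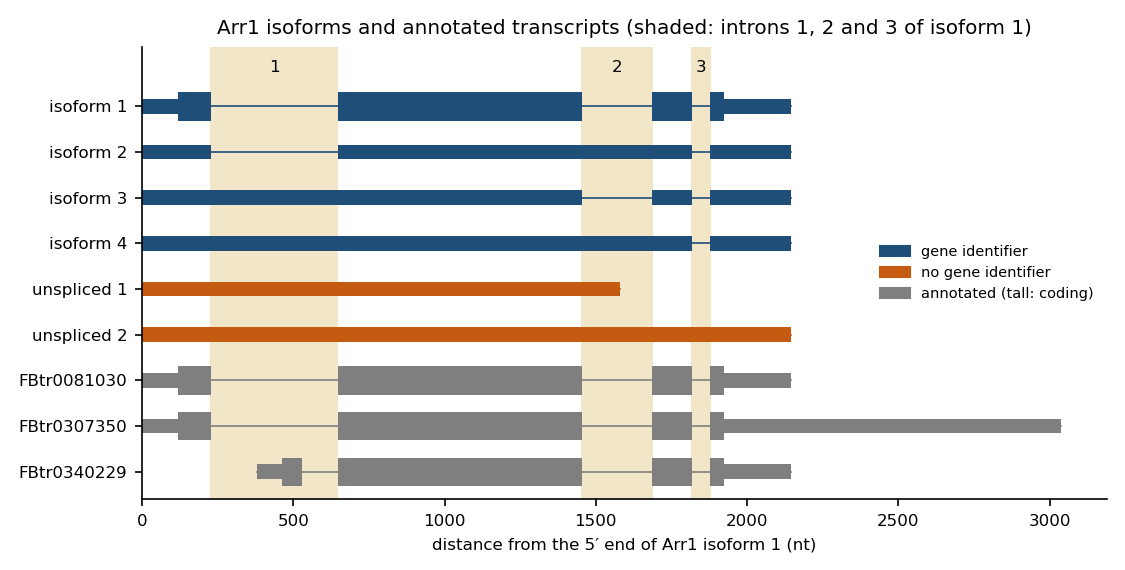
Arr1 isoforms with a gene identifier (blue), unspliced isoforms without one (orange) and annotated transcripts (grey) against the distance from the 5′ end of the first isoform in nt. Boxes are exons, tall boxes whole coding sequences, lines introns, and the shaded bands the 3 introns of isoform 1. Bands 1 and 2 are open in 2 of the 4 blue isoforms each, band 3 in all 4, and no isoform starts inside intron 1 or reaches the distal annotated end.

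Start and end sites of the 7 genes were then counted, with 5′ ends within 50 nt taken as 1 transcription start site (TSS) and 3′ ends within 150 nt as 1 polyadenylation site (PAS). The members had 7 TSSs and 7 PASs, 1 of each per gene, where their 10 annotated transcripts have 9 TSSs and 8 PASs. The annotated TSSs not used were the upstream start of Rh5 and the internal start of Arr1, and the annotated PAS not used was the distal one of Arr1. Of all genes with an isoform, 5.57% had more than 1 TSS and 7.17% had more than 1 PAS, so a single site of each kind is what most genes in the list had.

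All 10 isoforms began within 1 nt of an annotated start, and of all multi-exon isoforms 95.8% did. The authors had kept reads whose 5′ end lay at a mapped promoter, which bears on both shares. Whether their processing also moved ends onto annotated ones is not stated and was not tested. Such a step would bear on the counts of sites and on ends shared between isoforms as well. At the other end, Rh3 was the only member with a 3′ end over 150 nt from any annotated one, and the isoforms of the other 6 genes ended within 1 nt of one. Over 150 nt away were the ends of 24.7% of all multi-exon isoforms and of 5.58% of single-exon isoforms, the class of Rh3. Isoforms that ran, as Rh3 did, over 150 nt beyond the most distal annotated end were 1.82% of the 4940 isoforms of annotated genes.

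Of the 9 multi-exon member isoforms, 6 had exactly the ordered junctions of an annotated transcript, 1 for each gene with an intron, and 80.0% of all multi-exon isoforms did. The other 3 were the intron-holding Arr1 isoforms. The 14 different introns removed in member isoforms were all annotated. A whole annotated coding sequence was spanned by 7 of the 10 isoforms, 1 for each gene, and by 83.5% of all isoforms of protein-coding genes.

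The median spliced length of the member isoforms was 1566.5 nt, with a range of 1346 to 2086 nt, and the median of all isoforms was 1990.5 nt. In the whole list, 24.6% of isoforms were shorter than the shortest member isoform and 54.1% were shorter than the longest one, the Arr1 isoform with both introns held. Per the labels, the libraries were selected for transcripts above 3 kb. Of the 10 member isoforms, 0 exceeded 3000 nt, and 21.7% of all isoforms did.

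**Figure D3:**
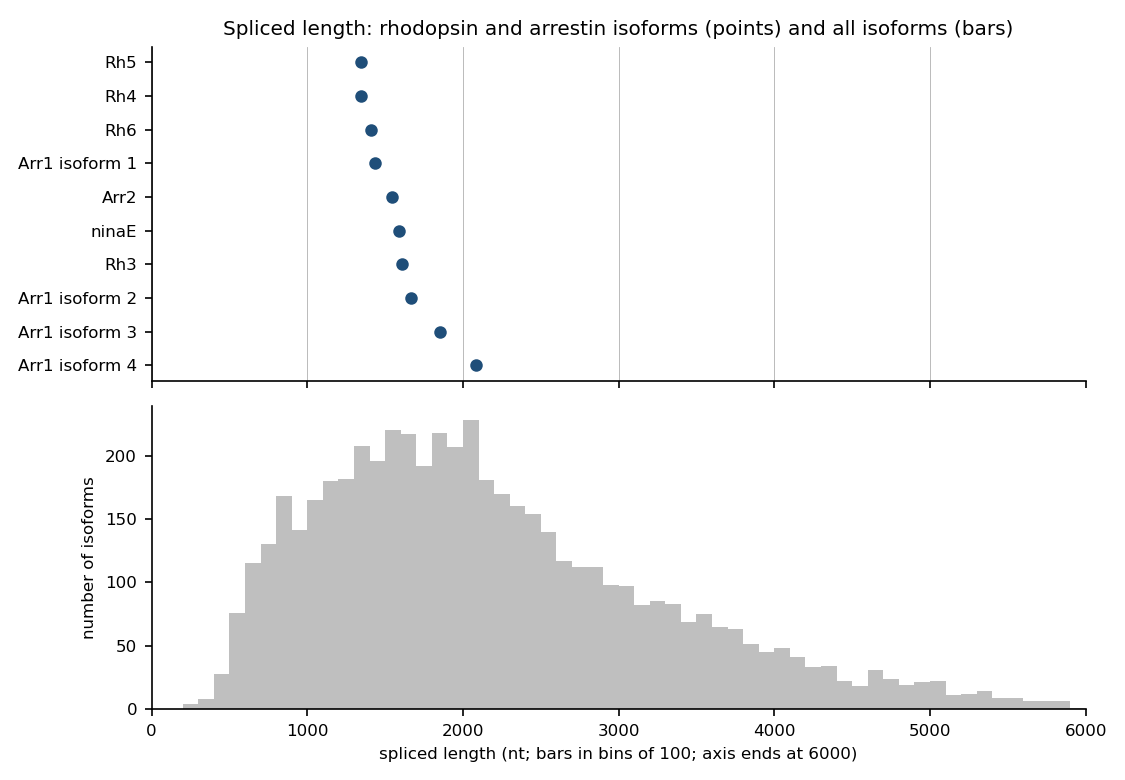
Spliced length in nt of the 10 member isoforms (upper panel, 1 point each) and the number of all isoforms in bins of 100 nt (lower panel). The member isoforms lie between 1346 and 2086 nt, with the shortest, Rh5 and Rh4, 2 nt apart.

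In the 7 member isoforms with a whole coding sequence, the 5′ UTRs ran between 24 nt (Rh3) and 176 nt (ninaE), with a median of 111 nt, and the median of the 4117 isoforms with a whole coding sequence was 172 nt. Their 3′ UTRs ran between 127 nt (Rh5) and 433 nt (Rh3), with a median of 221 nt beside 291 nt in all. Coding sequence took up a median of 77.5% of the member isoforms and 70.9% of all. These medians are a description of 7 isoforms, and their difference was not tested.

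Of the 14 introns, 10 were under 100 nt, and the median was 67 nt. Among all 15923 introns of the list the median was 90 nt and 51.6% were under 100 nt. The 4 that were longer were the second intron of ninaE, introns 1 and 2 of Arr1 and the intron of Rh4, which was longer than all but 3.96% of the introns in the list. Introns 1 and 2 of Arr1 were held in isoforms, whereas the long introns of ninaE and Rh4 were not held in any.

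The place of the introns in the coding sequence was compared between the members, and with Rh2 and Rh7, the rhodopsin of the ocelli and a further opsin, and krz, the non-visual arrestin. Rh3 has none and Rh4 has 1, after coding nt 589, which is after the first base of a codon. Rh5 has an intron near that place, after coding nt 583, also after the first base of a codon. Its other intron follows coding nt 236, after the second base of a codon, and Rh7 has introns after coding nt 233 and 559 in the same 2 codon positions as those of Rh5. krz, which is no opsin, also has its only coding intron in that stretch, after coding nt 571 and the first base of a codon. ninaE has an intron there too, after coding nt 569, but after the second base of a codon. ninaE and Rh6 resemble each other at their 3′ ends. Their last 2 coding exons are 278 and 127 nt long in ninaE and 281 and 121 nt in Rh6, with the intron before the pair between codons and the intron inside it after the second base of a codon in both. Rh2 has no intron in the stretch between coding nt 559 and 589. Its introns follow coding nt 99 and 1050, both between codons, and coding nt 1016, after the second base of a codon. The last introns of ninaE and Rh6, after coding nt 995 and 968, also follow the second base of a codon. In Rh2 a further intron lies downstream of that place, and its last 2 coding exons are 34 and 96 nt long. Arr1 and Arr2 differ: Arr1 has coding exons of 109, 808, 130 and 48 nt, and Arr2 of 856, 195 and 155 nt. Whether these places match in aligned proteins was not tested.

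**Figure D4:**
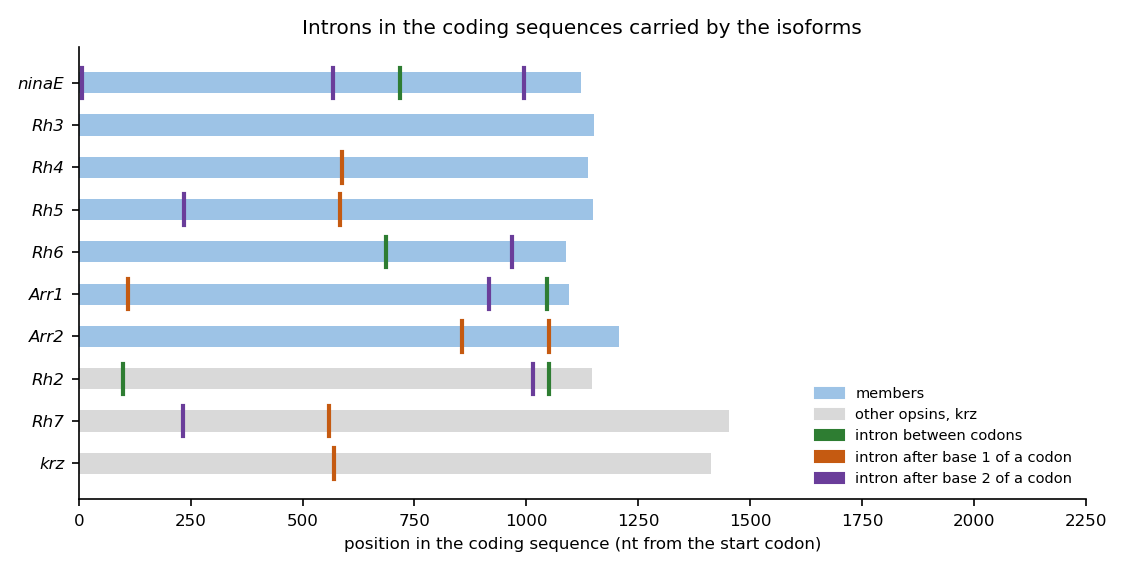
Coding sequence carried by the isoform of each member (blue bars) and of Rh2, Rh7 and krz (grey bars), in nt from the start codon, with introns as vertical marks coloured by their position in the codon. Rh4, Rh5, Rh7 and krz each have an orange mark between 559 and 589 nt. In that stretch ninaE has a purple mark and Rh2 has none. Near the 3′ end, ninaE and Rh6 each have a green mark followed by a purple mark. Rh2 has a purple mark followed by a green mark there.

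The remaining genes of the visual pathway were read from lists that were drawn up with earlier results of these data known. For each list, the shares to compare with are those of all genes. Of all protein-coding genes 28.8% had an isoform, and of all genes with an isoform 14.8% had 2 or more. Of the 9 genes of rhodopsin maturation and chromophore supply, 7 had an isoform, among them ninaA, the cyclophilin that brings Rh1 out of the endoplasmic reticulum. Cnx99A, a calnexin needed for Rh1 folding, had 3 isoforms, and ninaB, the oxygenase that cleaves carotenoid to retinal, had 2. None was listed for ninaD or for the TRP and Rh1 chaperone gene Xport-B.

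Of the 14 genes of the cascade that metarhodopsin sets off, 12 had an isoform and 5 had 2 or more. The channel gene trpl had 6 isoforms with 3 PASs. Galphaq, which encodes the G-protein subunit that rhodopsin activates, had 4 isoforms with 2 TSSs, and norpA, the phospholipase C gene, had 3 isoforms with 2 TSSs and 3 PASs. The diacylglycerol kinase gene rdgA had 3 isoforms with 3 PASs. Only rdgB, a phosphatidylinositol transfer protein gene, and the sodium/calcium exchanger gene Calx had none.

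Of the 10 genes listed under rhodopsin deactivation and arrestin regulation, 8 had an isoform, among them rdgC, the rhodopsin phosphatase gene. The list is a loose one, since PIP82 and retinin, which are among the 8, are not known for either role. Gprk1, the rhodopsin kinase gene, had 4 isoforms with 1 TSS and 3 PASs. Gprk1, Galphaq and Arr1 thus had 4 isoforms each, and of these 3 genes only Arr1 had a single TSS and a single PAS. Among the marker genes used below, nSyb with 4 isoforms and up with 8 also had 1 TSS and 1 PAS each. Both are named after their values were seen. CaMKII, the kinase that phosphorylates Arr2, had 2 isoforms with 2 PASs, and stops and rtp had none.

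Of the 14 transcription factors of photoreceptor fate and rhodopsin choice, 5 had an isoform. These were Pph13, pros, gl and hth with 1 isoform each and Mef2 with 2. No isoform was listed for oc, whose product Otd acts on Rh3 and Rh5, for ss, which sets the choice between Rh3 and Rh4, or for sens, the R8 factor. The share of these 14 with an isoform stands beside 28.8% of all protein-coding genes, and the difference between the lists was not tested.

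**Figure D5:**
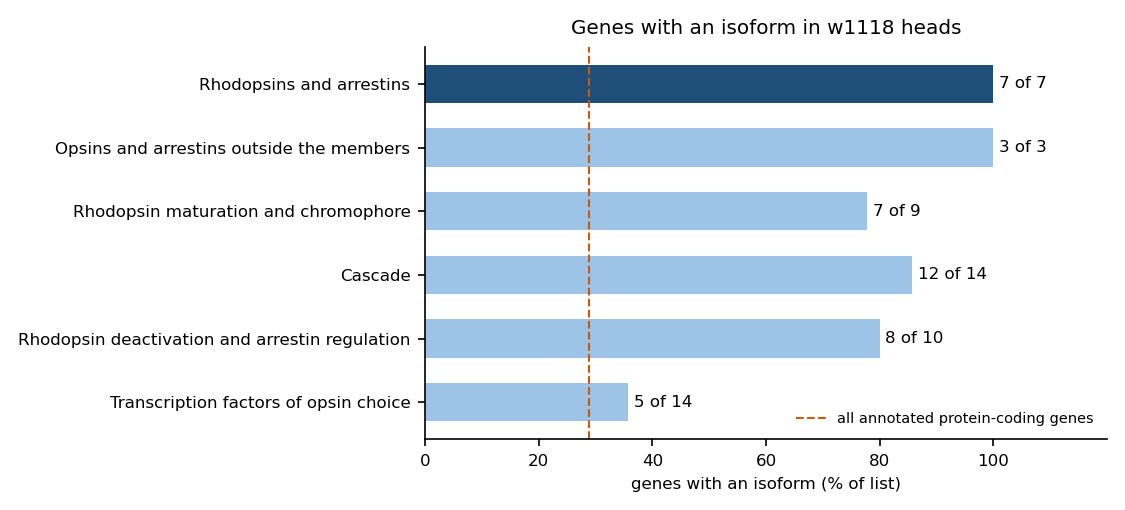
Share of genes with an isoform, in %, for the members (dark bar) and the lists of other visual genes (light bars), with counts at the bar ends. The dashed line is the share of all annotated protein-coding genes, 28.8%. Members and the other opsins and arrestin are complete, and the transcription factors stand at 5 of 14.

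The labelled tissue was checked against marker genes. Of the photoreceptor markers 5 of 6 had an isoform, with chp the one that had none. These 5, trp, norpA, inaD, ninaC and Galphaq, are also in the cascade and deactivation lists above, so they are no separate check. Isoforms were listed for 2 of 6 markers of other neurons and 4 of 5 of glia. For muscle they were listed for 4 of 4, and for fat body for 3 of 4. Of all protein-coding genes 28.8% had an isoform. Of the 5 matched genes of the ovary and germline, none had an isoform.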

How the data were processed

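The deposited file lists exon positions of isoforms pooled from 3 Iso-seq libraries. These are coordinates, not counts, and carry no normalization and no abundance. The authors' notes and methods name Iso-seq3 and SMRT Link version 8 for consensus reads, STARlong for mapping on dm6, and FLAIR version 1.1 for correction and collapse, using short-read junctions and mapped promoters, with at least 2 full-length reads an isoform and up to 5 ends a splice chain. Their methods also describe a 3′ end filter, and its use on this file is not stated.

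Libraries were prepared from 0.5 µg RNA with 14 PCR cycles on 3 SMRT cells. Isoforms were compared with Ensembl release 115 (BDGP6.54, the assembly of dm6), which is later than the authors' annotation. Of 4059 gene identifiers, 4035 matched. The 303 isoforms without identifier (301 single-exon) were used only by position. Left ends lie 1 nt right of the annotation, so ends within 1 nt were called equal. The limit of 100 nt for short introns was set after the values were seen. An intron was held where an exon of another isoform spans it.

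The members and lists were chosen with earlier results of these data known. Named genes are the members, Rh2, Rh7, krz, overlapping genes, and up to 4 genes per list with most isoforms, with others named by presence, and neighbours and genes with unspliced copies named after their values were seen. CdsA was matched by synonym and nos of the germline list was unmatched. Alternatives covered gene assignment, joining distances, junction tolerance, coding span and length. Planned poly(A) signal, promoter motif and protein identity comparisons needed sequences and were not analysed here. Scripts were tested on simulated transcripts. Python 3.11.15 and matplotlib 3.10.9 were used.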

Additional observations from a re-analysis of the deposited data

How the results depend on the processing

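Of 18 alternative values, 9 equalled the value reported and 9 did not. Needing 2 isoforms left 1 member, Arr1. With an end called distant only over 500 nt, 0 member isoforms were distant, since Rh3 ends 218 nt away. The longest isoform of each gene gave a median spliced length of 1546 nt. Assigning isoforms by position on the same strand gave 6 members and 11 isoforms, Rh3 being lost through its listed strand. Letting single-exon isoforms lie on either strand, chosen after seeing the data, gave 7 members, 13 isoforms and 8 PASs. Counting parts of an annotated chain gave 8 isoforms with an annotated chain where exact chains gave 6, and asking for the stop codon alone gave 10 isoforms where the whole coding sequence gave 7. The 3 alternatives on the poly(A) signal, 1 on promoter motifs and 1 on protein identity were not run. No paired analysis was possible because the 3 libraries form 1 group and were pooled, and no replicate could be left out. Without abundance, an isoform not listed may have been present with fewer than 2 full-length reads.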

Other observations

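Rh2, Rh7 and krz, the opsin and arrestin genes outside the 7, each had an end away from the annotation. Rh2, the rhodopsin of the ocelli, had 1 isoform of 1445 nt with 4 exons at 3R:18899343-18901019 that began 80 nt upstream of its annotated start and ended at the annotated 3′ end. Rh7 had 1 isoform of 2974 nt at 3L:12165245-12175482 that ended 1040 nt before its annotated end. krz, the non-visual arrestin gene, had 1 isoform of 2478 nt at 3R:32048117-32051993 that ended 490 nt from the nearest annotated end. All 3 had an annotated splice chain and a whole coding sequence, and with Rh2 and Rh7 all 7 opsins had an isoform.

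The Rh6 isoform carried the name of a transcript that is absent from the annotation used here, which was so for 7 isoforms in the list. The spliced Arr1 isoform carried the name of the annotated transcript with the distal 3′ end, although it ended 892 nt before that end.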
